A study of Mus musculus with 17 samples.

Results

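Lysosomal enzymes and acidification were followed as 32 genes of 27179 in the deposited count tables: 17 soluble hydrolases and their helpers, 7 membrane, cholesterol transfer and granulin genes, Tfeb and Tfe3 of the TFEB family of transcription factors, and 6 genes of the proton pump. They were taken by gene symbol from a fixed list, which was chosen with earlier results of these data known. Each of the 32 had a row in each of the 3 tables. RNA came from colon macrophage preparations of C57BL/6(h-2b) mice aged 8 weeks, with 1 mouse per library by the numbers in the titles. Mice deficient in MCJ, the mitochondrial protein encoded by Dnajc15, are called KO here, and mice without that deficiency WT. NN libraries name no treatment (2 KO, 3 WT). NP libraries had dextran sulfate sodium (DSS), a polymer that injures the colon lining, for 6 days (3 KO, 3 WT). PP libraries had a broad-spectrum antibiotic for 7 days before the 6 days of DSS (3 KO, 3 WT). How MCJ was removed, in which cells, and which antibiotic was used were not given in the sources used here.

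Lysosomes are acid compartments in which proteins, sugars, lipids and nucleic acids are broken down. A proton pump, the V-ATPase, has a membrane part that carries protons (V0) and a cytosolic part that splits ATP (V1), and the acid it makes lets the hydrolases work. Transcription factors of the TFEB family bind the letters CACGTG, often inside the longer palindrome TCACGTGA, near the start sites of many lysosomal genes. Macrophages are known for large numbers of lysosomes, which digest what these cells engulf, while the cells of the colon lining hold lysosomes of their own.

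Promoter windows show where those letters stand in the members. RefSeq windows on GRCm38.p6, from 250 bases before to 50 after a start site, were at hand for 25 of the 32 genes. CACGTG, which reads the same on both strands, stood in the windows of 11 of these 25 genes (44.0%), against 8.09% of the 27025 genes with a window. The longer TCACGTGA, which contains CACGTG, stood in 6 of 25, against 1.13% of all genes. Of the 14 members that were called higher in PP than in NN in either genotype (described below by gene), 10 had a window and 4 of those held CACGTG (Ctsl, Lgmn, Gla and Atp6v1a). Of the other 18 members, 15 had a window and 7 held it (Ctsa, Ctsd, Glb1, Gaa, Lamp1, Mcoln1 and Atp6v0d1). The letters thus stood in members that were called higher and in members that were not called. A match describes the sequence and is not a bound site.

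The 5 windows printed here are those of 3 members whose levels rose (Gla, Atp6v1a and Lgmn), of 1 that did not rise although it holds the letters (Mcoln1), and of 1 that rose without them (Ctsc). They run 5′ to 3′ along the gene's strand, with TCACGTGA, or CACGTG alone, in capitals. Their positions are chrX:134600956-134601255 on the minus strand for Gla, chr16:44139210-44139509 on the minus strand for Atp6v1a, and chr12:102439043-102439342 on the minus strand for 1 of the 2 windows of Lgmn. That Lgmn window was picked because it holds the letters, and the other Lgmn window does not hold them. Mcoln1 is at chr8:3500269-3500568 and Ctsc at chr7:88277835-88278134, both on the plus strand.
Gla: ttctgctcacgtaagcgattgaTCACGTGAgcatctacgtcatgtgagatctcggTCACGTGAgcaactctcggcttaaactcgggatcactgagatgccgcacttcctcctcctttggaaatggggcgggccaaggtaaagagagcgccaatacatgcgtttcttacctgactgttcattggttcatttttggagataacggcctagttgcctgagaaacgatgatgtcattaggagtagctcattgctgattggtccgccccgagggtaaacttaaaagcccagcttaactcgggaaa
Atp6v1a: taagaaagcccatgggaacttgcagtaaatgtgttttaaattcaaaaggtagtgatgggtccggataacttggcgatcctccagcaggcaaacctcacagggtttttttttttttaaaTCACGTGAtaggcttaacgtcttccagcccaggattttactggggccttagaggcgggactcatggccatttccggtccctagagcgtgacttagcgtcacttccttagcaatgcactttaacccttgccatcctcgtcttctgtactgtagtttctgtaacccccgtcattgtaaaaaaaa
Lgmn: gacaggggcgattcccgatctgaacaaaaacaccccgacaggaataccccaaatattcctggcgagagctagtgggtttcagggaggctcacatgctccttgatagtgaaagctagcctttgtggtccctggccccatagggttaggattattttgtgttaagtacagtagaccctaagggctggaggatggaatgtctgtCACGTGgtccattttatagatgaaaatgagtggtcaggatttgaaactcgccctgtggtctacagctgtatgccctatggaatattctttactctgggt
Mcoln1: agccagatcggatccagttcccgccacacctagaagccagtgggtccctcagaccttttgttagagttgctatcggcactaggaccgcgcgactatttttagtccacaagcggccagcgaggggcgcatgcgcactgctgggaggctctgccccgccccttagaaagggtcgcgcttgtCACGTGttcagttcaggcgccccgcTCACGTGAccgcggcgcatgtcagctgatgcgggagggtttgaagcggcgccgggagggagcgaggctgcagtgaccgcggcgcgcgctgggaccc
Ctsc: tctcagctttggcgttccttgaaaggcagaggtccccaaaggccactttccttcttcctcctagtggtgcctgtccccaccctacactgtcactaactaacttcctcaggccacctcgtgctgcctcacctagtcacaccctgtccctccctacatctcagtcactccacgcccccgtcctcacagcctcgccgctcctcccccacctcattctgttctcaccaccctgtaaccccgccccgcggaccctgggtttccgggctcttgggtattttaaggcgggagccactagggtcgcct

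The libraries held 29194744 to 37083344 counts, and transcripts of the mitochondrial chromosome took 23.1 to 50.4% of them. Dnajc15 had 21 to 121 counts in KO libraries and 359 to 1534 in WT libraries, so each library matched its genotype label. The label of colon macrophages was checked against 14 macrophage markers such as Adgre1, Csf1r and C1qa. Levels are given as CPM, the count of a gene scaled to a common library size, with each library scaled by its TMM factor. The macrophage markers summed to 42.2 and 46.4 CPM in KO NN and 29.1 to 44.8 CPM in WT NN libraries, with Aif1 at 0 in each WT NN library. In the same NN libraries 10 colonocyte markers such as Krt8, Car1 and Epcam summed to 13780 to 19740 CPM, so the NN preparations carried far more colonocyte than macrophage marker RNA. The macrophage sum reached 519 to 1533 CPM in KO NP, 149 to 235 CPM in WT NP, 2799 to 5254 CPM in KO PP and 624 to 4909 CPM in WT PP, and the colonocyte sum in PP was 6215 to 10800 CPM. In such bulk samples, fewer cells of a type and less RNA per cell cannot be told apart.

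Per length of transcript, the membrane protein Cd63 led the members in each group but KO PP. In group means of CPM per kilobase of transcript, Cd63 stood at 420 in KO NN and 657 in WT NN, and Lamp1, which lines the lysosomal membrane, at 153 and 104. Npc2, which carries cholesterol in the lumen, stood at 84.5 in KO NN and 122 in WT NN. In KO PP the order was headed by Psap at 318, followed by Cd63 (276), Ctsb (221), Ctsd (211) and Ctsz (189). In WT PP the order was Cd63 (333), Psap (197), Ctsb (165), Ctsd (152) and Ctsc (131). In WT PP each Cd63 library was above each Psap library per kilobase. The lowest members in each of the NN and NP groups were Atp6v0d2, Npc1, Gaa, Tfe3 and Tfeb, each under 4 CPM per kilobase.

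**Figure D1:**
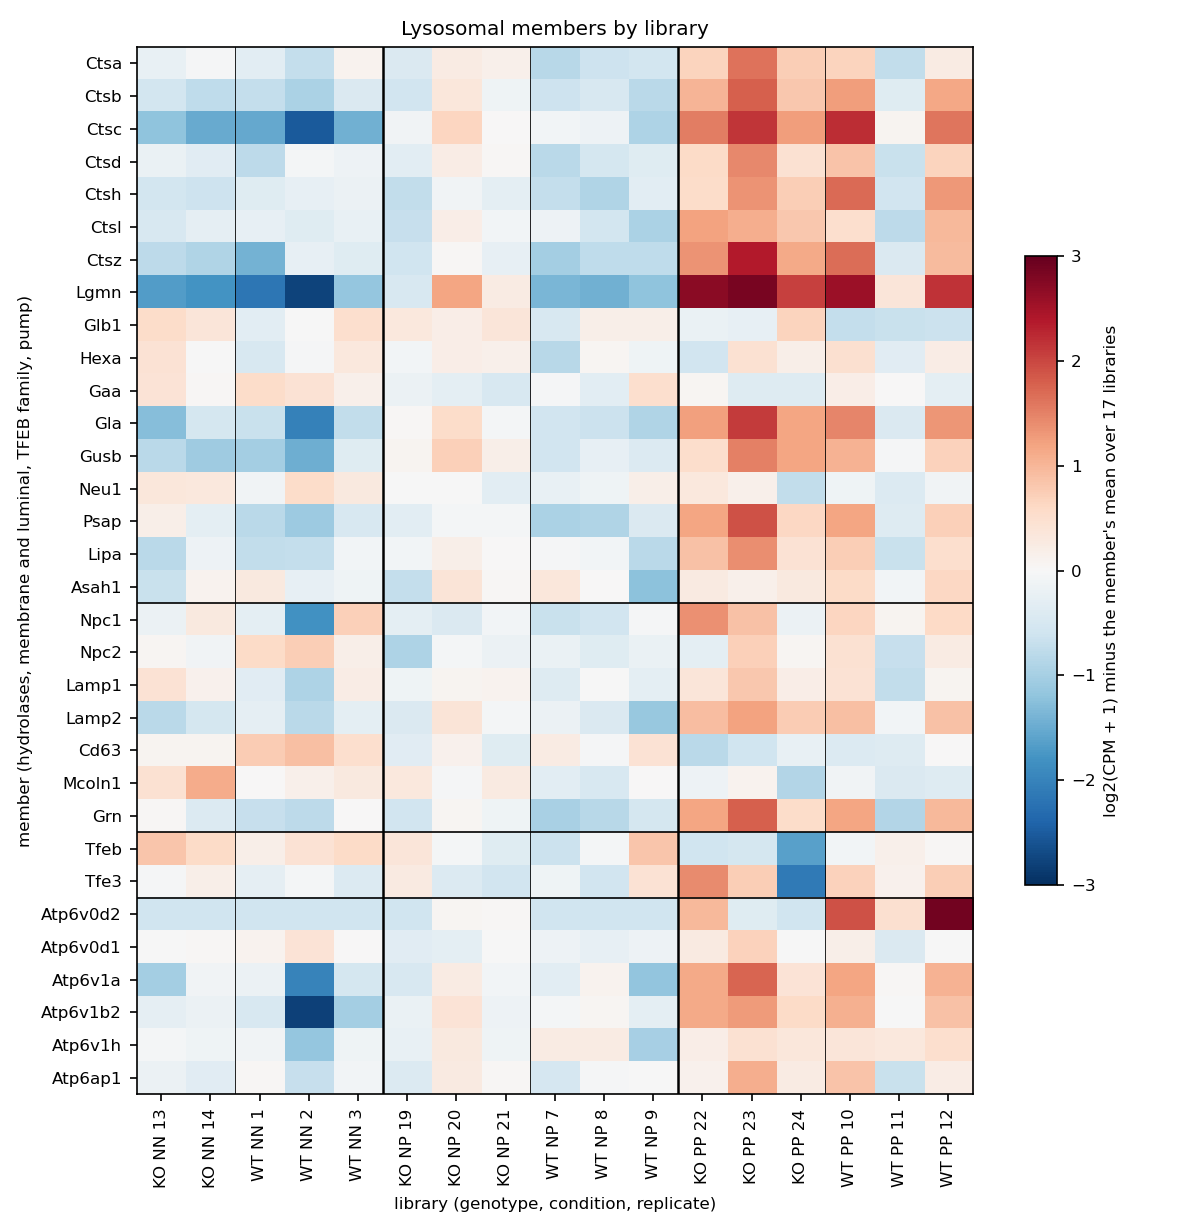
Level of each of the 32 members (rows, by role) in each of the 17 libraries (columns, by condition and genotype), as log2(CPM + 1) minus that member's mean over the libraries. Cathepsins and Lgmn are mostly above their mean in PP libraries apart from WT PP 11, while Cd63 is highest in the WT NN columns.

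Antibiotic followed by DSS was set against NN to show the whole change from the preparations with no treatment named. The proteases Ctsb, Ctsc, Ctsh, Ctsz and Lgmn and the glycosidases Gla and Gusb rose in both genotypes. In KO, 11 of 32 members rose and 0 fell, against 6.52% of 16958 genes called higher and 3.77% called lower. In WT, 12 rose and 1 fell, against 12.8% of genes called higher and 7.31% called lower. The members' median log2 fold change was 1.19 in KO and 0.77 in WT, and that of all genes tested 0.06 in KO and 0.27 in WT. Calls here are adjusted p-values under 0.05 from edgeR's quasi-likelihood test, with Benjamini-Hochberg adjustment across every gene tested. Of the 11 higher members in KO and the 12 in WT, 9 were shared (81.8% and 75.0% of each): Ctsb, Ctsc, Ctsh, Ctsz, Lgmn, Gla, Gusb, Psap and Lamp2. These 2 comparisons share no library, but both came from 1 fit of 17 libraries with 1 shared estimate of the spread. The share of all genes called higher in both genotypes was not counted, so the size of the overlap cannot be judged.

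Legumain, encoded by Lgmn, cuts proteins after asparagine and trims cathepsins to their mature forms. Lgmn (chr12:102394082-102439728) stood at 340.4, 373 and 214 CPM in KO PP libraries against 15.2 and 13.96 CPM in KO NN libraries. In WT PP it stood at 305, 66.4 and 234 CPM, against 10.5, 6.57 and 22.1 CPM in WT NN. No PP library overlapped an NN library of its genotype, and WT PP 11 was the low one. The log2 fold change was 4.40 (SE 0.68, adjusted p = 0.000425, edgeR) in KO and 3.95 (SE 0.56, adjusted p = 0.000117, edgeR) in WT.

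Cathepsin C, which activates the serine proteases of white cells, made the next largest step among the cathepsins. Ctsc stood at 325, 502 and 270.2 CPM in KO PP against 48.0 and 38.8 CPM in KO NN, and at 522, 118 and 341 CPM in WT PP against 37.7, 18.8 and 40.4 CPM in WT NN. The groups did not overlap in either genotype, and its log2 fold change was 3.08 (SE 0.55, adjusted p = 0.00135, edgeR) in KO and 3.34 (SE 0.47, adjusted p = 0.000107, edgeR) in WT. Ctsz, a carboxypeptidase, stood at 209, 426 and 180.3 CPM in KO PP against 46.7 and 42.8 CPM in KO NN (adjusted p = 0.0042, edgeR). In WT PP it had 263, 59.5 and 158 CPM against 30.0, 68.0 and 63.3 CPM in WT NN (log2 fold change 1.57, SE 0.44). Ctsz in WT thus rose by the test although WT PP 11 lay below 2 of the 3 WT NN libraries.

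Of the other cathepsins, Ctsb and Ctsh passed in both genotypes, Ctsl in KO, and Ctsd and Ctsa in neither. Ctsb, an abundant endopeptidase, stood at 885, 1505 and 760.5 CPM in KO PP against 297 and 254 CPM in KO NN (log2 fold change 1.93, SE 0.43), and at 1029, 339 and 977 CPM in WT PP against 266, 224 and 322 CPM in WT NN (1.53, SE 0.37). Ctsh, an aminopeptidase, stood at 134, 237 and 153 CPM in KO PP against 62.1 and 59.7 CPM in KO NN (1.52, SE 0.47), and at 300.2, 60.9 and 227 CPM in WT PP against 71.0, 76.7 and 80.7 CPM in WT NN (1.36, SE 0.40). WT PP 11 thus lay below each WT NN library in Ctsh, and the WT call ended without WT NN 1 or 2 or WT PP 10 or 12, at adjusted p of 0.0568 to 0.15 (edgeR). Ctsl had 1.43 (SE 0.41) in KO and 0.68 in WT, where its level was 149.6, 61.2 and 208 CPM in WT PP against 88.6, 82.4 and 90.6 CPM in WT NN. The aspartic protease Ctsd had log2 fold changes of 1.16 in KO and 0.73 in WT, and Ctsa, which shields Neu1 and Glb1 from breakdown, 1.21 and 0.44; neither passed in either genotype. The adjusted p of Ctsb, Ctsh and Ctsz was 0.0042 to 0.045 in KO and 0.00694 to 0.0231 in WT (edgeR).

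Of the enzymes of sugars and lipids and their helpers, Gla, Gusb and Psap passed in both genotypes. Gla, the alpha-galactosidase that clears globosides, stood at 65.1, 120.2 and 62.9 CPM in KO PP against 10.6 and 18.7 CPM in KO NN (adjusted p = 0.00742, edgeR), and at 76.5, 19.9 and 69.0 CPM in WT PP against 16.7, 5.88 and 15.8 CPM in WT NN (log2 fold change 2.11, SE 0.47). Gusb, the beta-glucuronidase, rose by 2.16 (SE 0.43) in KO and 1.60 (SE 0.37) in WT. Psap, whose product is cut into saposins that present lipids to hydrolases, stood at 759, 1256 and 516 CPM in KO PP against 381 and 273 CPM in KO NN, and at 762, 254 and 552 CPM in WT PP against 190.0, 158 and 240.4 CPM in WT NN. It rose by 1.37 (SE 0.42) in KO and 1.42 (SE 0.36) in WT without overlap of the groups. Lipa, the acid lipase of cholesteryl esters and triglycerides, rose in KO (1.46, SE 0.45) and had a log2 fold change of 0.83 in WT.

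The beta-galactosidase Glb1 had log2 fold changes of −0.32 in KO and −0.80 in WT, the alpha-glucosidase Gaa −0.51 and −0.45, the sialidase Neu1 −0.37 and −0.49, and the hexosaminidase subunit Hexa −0.14 and 0.19. The acid ceramidase Asah1 stood at 0.48 and 0.41. None of these 5 passed in either genotype (adjusted p 0.0651 or more, edgeR). Glb1 in WT PP lay at 19.3, 20.2 and 20.5 CPM, below the 25.9, 32.3 and 46.0 CPM of WT NN.

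Membrane and luminal members moved in both directions. Lamp2, which also takes part in chaperone-mediated autophagy, stood at 289, 347 and 257 CPM in KO PP against 85.1 and 103.9 CPM in KO NN (log2 fold change 1.66, SE 0.37, adjusted p = 0.00739, edgeR), and at 281, 141 and 279 CPM in WT PP against 125, 85.4 and 122 CPM in WT NN (1.08, SE 0.31, adjusted p = 0.0217, edgeR). Its relative Lamp1 had log2 fold changes of 0.20 in KO and 0.28 in WT and did not pass. Cd63, a tetraspanin of late endosomes and granules, fell in WT, at 315, 323 and 425 CPM in WT PP against 713, 787 and 595 CPM in WT NN (−0.98, SE 0.24, adjusted p = 0.0071, edgeR). In KO PP it had 239, 279 and 361 CPM against 448 and 444 CPM in KO NN, again without overlap (−0.61, SE 0.26, adjusted p = 0.162, edgeR). The progranulin gene Grn (1.47 in KO, 1.14 in WT), the calcium channel gene Mcoln1 (−1.18 and −0.53), the cholesterol exporter Npc1 (0.81 and 0.64) and its partner Npc2 (0.24 and −0.43) did not pass.

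Of the pump genes, 3 rose in WT and 0 of 6 passed in KO. Atp6v1a, the subunit of V1 that splits ATP, stood at 132, 203 and 80.3 CPM in KO PP against 28.8 and 55.7 CPM in KO NN (log2 fold change 1.71, SE 0.56, adjusted p = 0.0585, edgeR), and at 138, 61.7 and 124 CPM in WT PP against 52.4, 14.1 and 41.0 CPM in WT NN (1.59, SE 0.48, adjusted p = 0.0261, edgeR). Atp6v1b2, the V1 subunit beside it, rose in WT by 1.92 (SE 0.45) and had 1.26 (SE 0.51) in KO. These genotype gaps in passing were not shown to be differences: 0 members were called in the tests of the difference given below. Atp6v0d2, the V0 subunit known from osteoclasts and macrophages in mice, had 0 counts in all 5 NN libraries. It had 82, 7 and 0 counts in KO PP and 141, 38 and 337 in WT PP, which is at least 20.7-fold higher in KO PP than in KO NN and at least 125-fold higher in WT PP than in WT NN, with the NN group set at a floor of 3 counts in total. These limits rested on single libraries: without KO PP 22 the KO limit was 2.6-fold, and 10.5-fold and 10.2-fold without KO NN 13 and 14. Without WT PP 12 the WT limit was 65.6-fold, without WT NN 1 and 3 it was 82.2-fold and 79.1-fold, and without the other libraries it was 89.0-fold or more. It was called in WT (adjusted p = 0.0229, edgeR) and not in KO (adjusted p = 0.15, edgeR). Atp6v0d1, the subunit found in all cells, had log2 fold changes of 0.34 in KO and −0.25 in WT, the V1 regulator Atp6v1h 0.44 and 0.80, and the accessory protein Atp6ap1 0.81 and 0.49; none of these 3 passed.

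These counts leaned on single libraries, as did those over all genes. In KO, 3 members were called without KO NN 13 or without KO NN 14 and 7 without KO PP 23, with 552, 624 and 1128 genes called in those fits, against 1746 with all libraries. In WT, 7 rose and 1 fell without WT PP 10 (2118 genes called, against 3409), and a fit of the 2 groups alone called 3 higher and 1 lower (1612 genes). The calls of Lgmn and Ctsc in KO, and of Lgmn, Ctsc, Ctsb, Gla, Gusb, Cd63 and Atp6v1b2 in WT, held with any 1 library left out. Beside the members, 12 of 14 macrophage markers rose in KO and 13 of 14 in WT, and 6 and 5 of 10 colonocyte markers fell; 3 red cell markers summed to 4657, 7066 and 478 CPM in KO PP and 2.47 to 3.18 CPM in KO NN. The part of these shifts in the members' values was not tested. Gla, Lamp2, Tfe3 and Atp6ap1 lie on the X chromosome, and Xist, which the inactive X expresses, had 0 to 9 counts in PP libraries, against 7176 and 7950 counts in KO NN and 2048, 1100 and 1 in WT NN. In NP it had 3822 counts in KO NP 21 and 0 to 7 in the other NP libraries. The labels used here give no sex, and the part of Xist-positive libraries in the values of these genes was not tested.

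**Figure D2:**
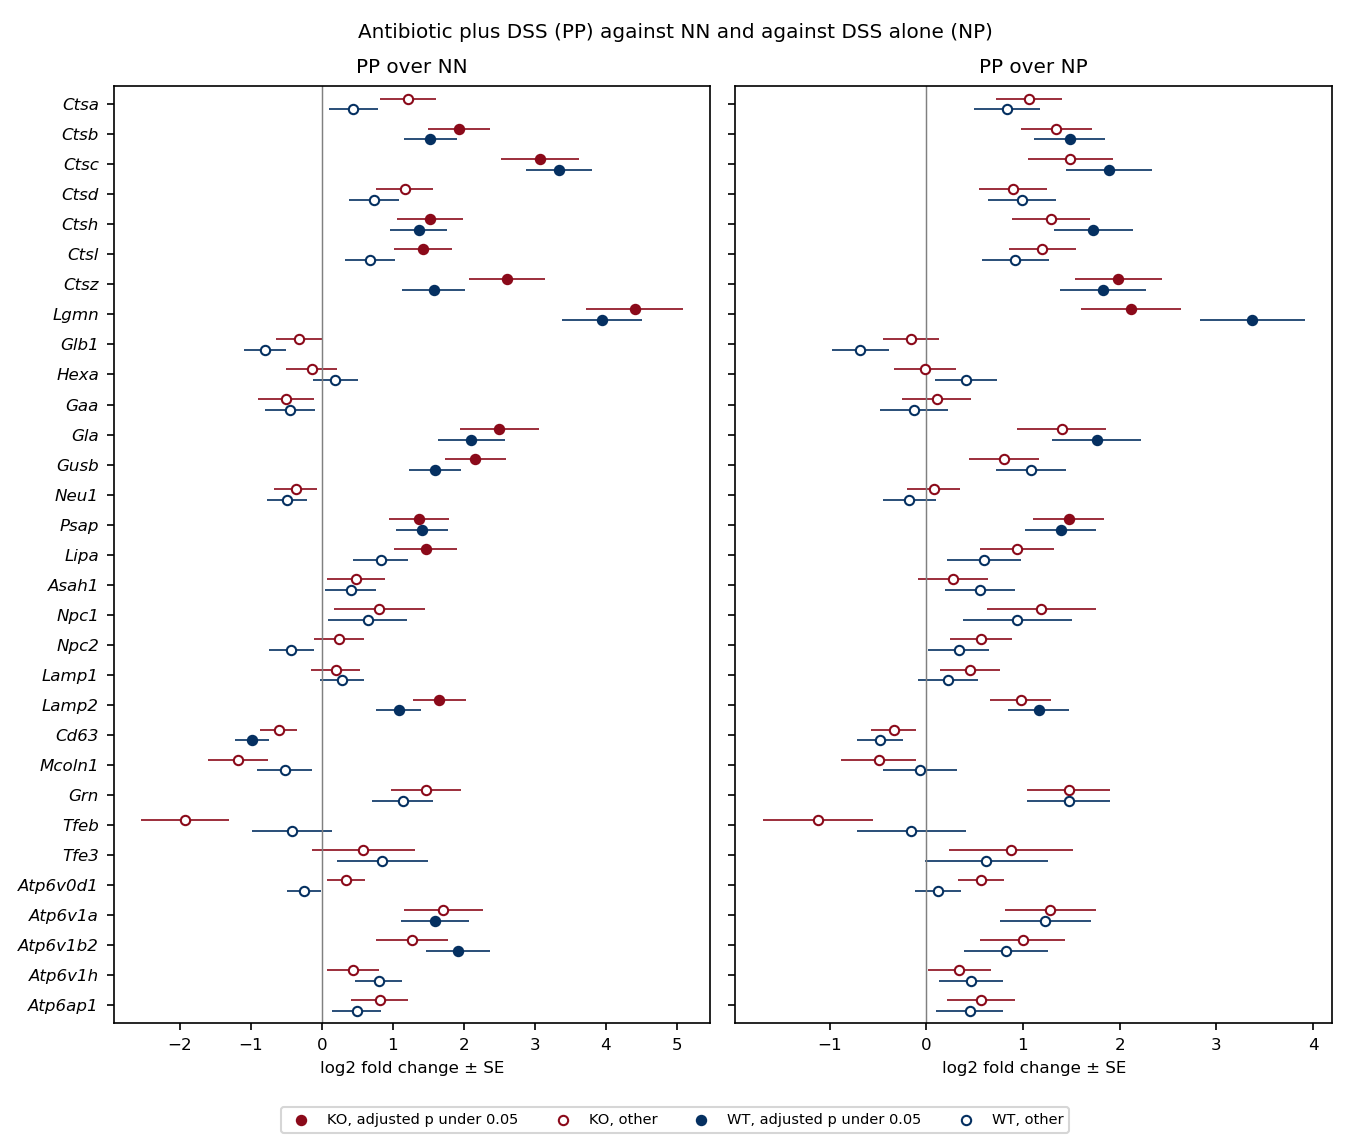
Log2 fold change with its standard error for 31 members (all but Atp6v0d2), PP over NN on the left and PP over NP on the right, with KO in red above WT in blue and filled points at an adjusted p under 0.05. Lgmn is farthest to the right in PP over NN at 4.40 in KO and 3.95 in WT, and Glb1, Gaa, Neu1, Cd63, Mcoln1 and Tfeb lie left of 0 there in both genotypes.

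Antibiotic before DSS, against DSS alone, asks what the antibiotic course added. It shares its PP libraries with the comparison above. In KO, 3 members rose and 0 fell: Lgmn, Ctsz and Psap, against 1.34% of 16958 genes called higher and 0.389% called lower. In WT, 8 rose and 0 fell: Ctsb, Ctsc, Ctsh, Ctsz, Lgmn, Gla, Psap and Lamp2, against 3.49% of genes called higher and 0.926% called lower. The 3 of KO were among the 8 of WT, from the same fit of 17 libraries and again without that share over all genes. The median log2 fold change over the members was 0.92 in KO and 0.83 in WT, against 0.01 and 0.06 over all genes tested. All 6 pump genes had positive log2 fold changes in both genotypes and none passed.

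Lgmn stood at 340.4, 373 and 214 CPM in KO PP against 36.3, 117 and 60.4 CPM in KO NP (log2 fold change 2.11 with SE 0.52 and adjusted p = 0.0474, edgeR), and at 305, 66.4 and 234 CPM in WT PP against 18.99, 18.03 and 21.4 CPM in WT NP (3.37, SE 0.54, adjusted p = 0.00233, edgeR). The groups did not overlap in either genotype. Ctsz stood at 209, 426 and 180.3 CPM in KO PP against 53.5, 83.9 and 68.3 CPM in KO NP (1.99, SE 0.45), and at 263, 59.5 and 158 CPM in WT PP against 39.8, 47.5 and 47.7 CPM in WT NP (1.83, SE 0.44). Psap stood at 759, 1256 and 516 CPM in KO PP against 270.5, 320.0 and 322 CPM in KO NP (1.47, SE 0.36), and at 762, 254 and 552 CPM in WT PP against 172, 178 and 249.5 CPM in WT NP (1.39, SE 0.36). Every PP library was above every NP library of its genotype for both, with WT PP 11 close to the highest WT NP library in Psap. In WT the other called members, Ctsc (1.89), Gla (1.76), Ctsh (1.73), Ctsb (1.48) and Lamp2 (1.16), had adjusted p of 0.0218 to 0.0429 (edgeR). In KO the same 5 had log2 fold changes of 1.49, 1.40, 1.29, 1.35 and 0.98 with adjusted p of 0.0699 to 0.135 (edgeR).

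Atp6v0d2 had 141, 38 and 337 counts in WT PP and 0 in each WT NP library, at least 198-fold higher in WT PP, and missed the threshold (adjusted p = 0.0525, edgeR); the limit was 104-fold without WT PP 12, 132-fold and 121-fold without WT NP 8 and 9, and 144-fold or more without each other library. In KO it had 82, 7 and 0 counts in KO PP and 0, 20 and 19 in KO NP, and the groups overlapped. The KO calls ended without KO NP 19, 20 or 21 or without KO PP 22 or 23 (0 members each), and 5 members passed without KO PP 24. Over all genes those fits called 12 to 96 and 634, against 294 with all libraries. In WT only Lgmn passed without WT NP 7, 8 or 9 or without WT PP 10 or 12, and 14 members rose without WT PP 11; over all genes those fits called 215 to 321 and 1313, against 748 with all libraries. A fit of the 2 groups alone called 8 members in KO and 2 in WT. Markers of other cells moved beside the members. Macrophage markers had 1 of 14 called higher in KO and 11 of 14 in WT, and stood at 2799 to 5254 CPM in KO PP against 519 to 1533 CPM in KO NP. In KO, monocyte markers summed to 1610 to 2744 CPM in PP against 105 to 314 CPM in NP, neutrophil markers to 1174 to 5359 CPM against 260.2 to 549 CPM, and red cell markers to 478 to 7066 CPM against 20.4 to 42.1 CPM. In WT, monocyte markers summed to 57.5 to 1206 CPM in PP against 47.6 to 84.6 CPM in NP. Their part in the members' values was not tested.

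**Figure D3:**
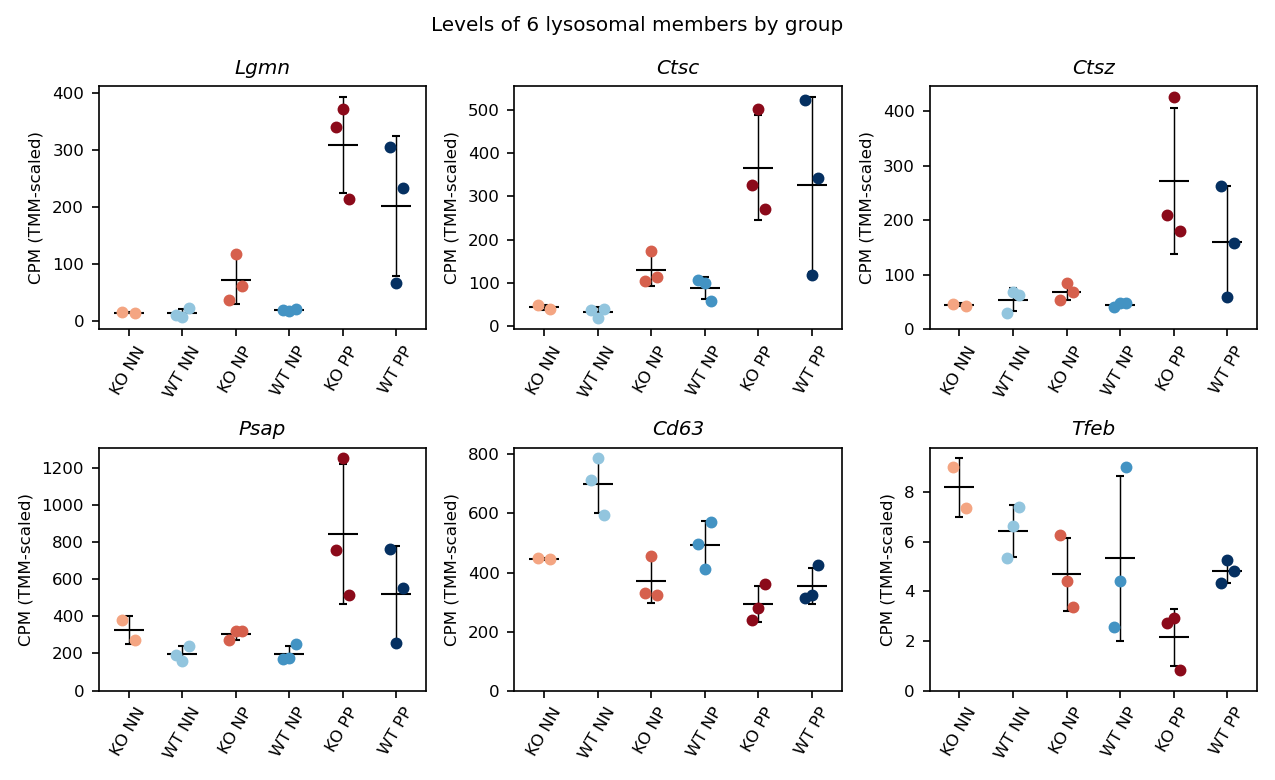
CPM of 6 members in each library (points) with group means and SD (bars), NN, NP and PP from left to right and KO before WT in each. Lgmn, Ctsc, Ctsz and Psap are highest in PP with 1 low WT PP library, Cd63 is highest in WT NN at 595 to 787 CPM, and Tfeb lies at 0.83 to 2.91 CPM in KO PP.

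DSS without antibiotic was set against NN. In KO, 0 of 32 members were called, against 2.04% of 16958 genes called higher and 0.0354% called lower, and in WT 0 of 32, against 2.25% and 0.195% (edgeR). At an unadjusted p under 0.05 there were 4 members in KO, against 8.27% of genes, and 4 in WT, against 15.9%. The members' median log2 fold change was 0.18 in KO and −0.13 in WT, against 0.02 and 0.14 over all genes. The KO median was −0.02 without KO NP 20 and 0.38 without KO NP 19, and the WT median 0.01 without WT NN 3 and 0.00 without WT NP 7. Lgmn had 2.29 (SE 0.61, adjusted p = 0.0668, edgeR) in KO, at 36.3, 117 and 60.4 CPM in KO NP against 15.2 and 13.96 CPM in KO NN. In WT it stood at 18.99, 18.03 and 21.4 CPM in WT NP, inside the 6.57 to 22.1 CPM of WT NN.

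Ctsc was the member nearest to a call in WT under DSS alone, at 106, 100.3 and 58.7 CPM in WT NP against 37.7, 18.8 and 40.4 CPM in WT NN (log2 fold change 1.45, SE 0.44, adjusted p = 0.0992, edgeR). In KO it stood at 103.7, 175 and 112 CPM in KO NP against 48.0 and 38.8 CPM in KO NN (1.59, SE 0.51, adjusted p = 0.179, edgeR). The groups did not overlap in either genotype. DESeq2 called Ctsc in WT, and Ctsc, Lgmn and Gusb in KO; without KO NP 19, edgeR called Lgmn in KO. In Cd63 and Npc2 of WT the change was downward, by −0.50 and −0.77, with neither past the threshold. Macrophage markers rose in the same comparison, 9 of 14 in KO and 8 of 14 in WT; their part in the members' values was not tested.

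Loss of MCJ was compared in each condition. In NP most members stood higher in KO, and 1 of 31 tested rose, against 0.983% of 14452 genes called higher and 0.0208% called lower. The call was Lgmn, at 36.3, 117 and 60.4 CPM in KO NP against 18.99, 18.03 and 21.4 CPM in WT NP; its log2 fold change was 1.87 (SE 0.37) with an adjusted p of 0.0366 (edgeR). Of the 31, 24 had a positive log2 fold change, with a median of 0.31 against 0.03 over all genes tested, and 9 were under an unadjusted p of 0.05, against 9.24% of genes. In 8 members (Ctsa, Ctsd, Ctsz, Lgmn, Glb1, Gla, Gusb and Psap) every KO NP library was above every WT NP library, against 8.84% of 17335 genes with at least 10 counts. Gla stood at 27.96, 40.1 and 25.9 CPM in KO NP against 17.8, 16.9 and 14.03 CPM in WT NP (0.95, SE 0.26, adjusted p = 0.16, edgeR). All 8 are hydrolases or their helpers, and no member stood lower in every KO NP library, against 6.4% of genes.

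The Lgmn call in NP rested on single libraries. Its adjusted p (edgeR) was 0.148 without KO NP 20, 0.0735 without KO NP 21, 0.192 without WT NP 7, 0.218 without WT NP 8 and 0.0717 without WT NP 9, with log2 fold changes of 1.31 to 2.18 over the 6 libraries left out. Calls over all genes fell in the same fits, to 37, 72, 35, 20 and 128 in the order named, against 145 with all NP libraries. In the fit of all 17 libraries the adjusted p of Lgmn was 0.354 (edgeR), and 1 gene was called over all genes. KO NP 20 was the highest of the 6 NP libraries in 21 of 32 members and also had the highest macrophage sum, 1533 CPM. Macrophage markers summed to 519, 1533 and 821 CPM in KO NP against 199, 149 and 235 CPM in WT NP, with 14 of 14 positive and 8 called higher, and monocyte markers gave 4 of 6 called higher. The part of this marker difference in the members' values was not tested.

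In NN, 0 of 31 members were called between KO and WT, against 0% of 13559 genes (edgeR), with 3 at an unadjusted p under 0.05, against 8.29% of genes. Those were Cd63 at 448 and 444 CPM in KO NN against 713, 787 and 595 CPM in WT NN (log2 fold change −0.69), Psap (0.69) and Npc2 (−0.58). Raw Cd63 counts were 17049 and 17286 in KO NN and 17416, 16189 and 15563 in WT NN. The TMM factors behind the CPM were 1.27 and 1.16 in KO NN and 0.84, 0.70 and 0.77 in WT NN. Mitochondrial transcripts took 23.1 and 28.4% of counts in KO NN and 38.9, 42.2 and 50.4% in WT NN. DESeq2 called Cd63 lower (adjusted p = 0.00958) and no other member. In PP, 0 of 32 were called by edgeR, against 0% of 14556 genes, and 0 by DESeq2, with 1 member, Glb1, at an unadjusted p under 0.05, against 5.21% of genes. Glb1 stood at 28.1, 27.0 and 51.9 CPM in KO PP against 19.3, 20.2 and 20.5 CPM in WT PP (0.86, SE 0.33). The members' median of 0.37 in PP, against 0.01 over all genes, was 0.09 without WT PP 11 and 0.06 without KO PP 23.

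Whether the MCJ effect differed between conditions was tested directly in the fit of all 17 libraries. Of 32 members 0 were called for NP against NN, PP against NP or PP against NN, by edgeR or DESeq2, where edgeR called 0%, 0% and 0.0531% of 16958 genes. At an unadjusted p under 0.05 there were 1, 1 and 0 members, against 5.6%, 5.22% and 8.26% of genes. These were Lgmn in NP minus NN (1.72, SE 0.76 on the log2 scale, adjusted p = 0.871, edgeR) and Atp6v0d2 in PP minus NP, where WT NP had no counts.

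**Figure D4:**
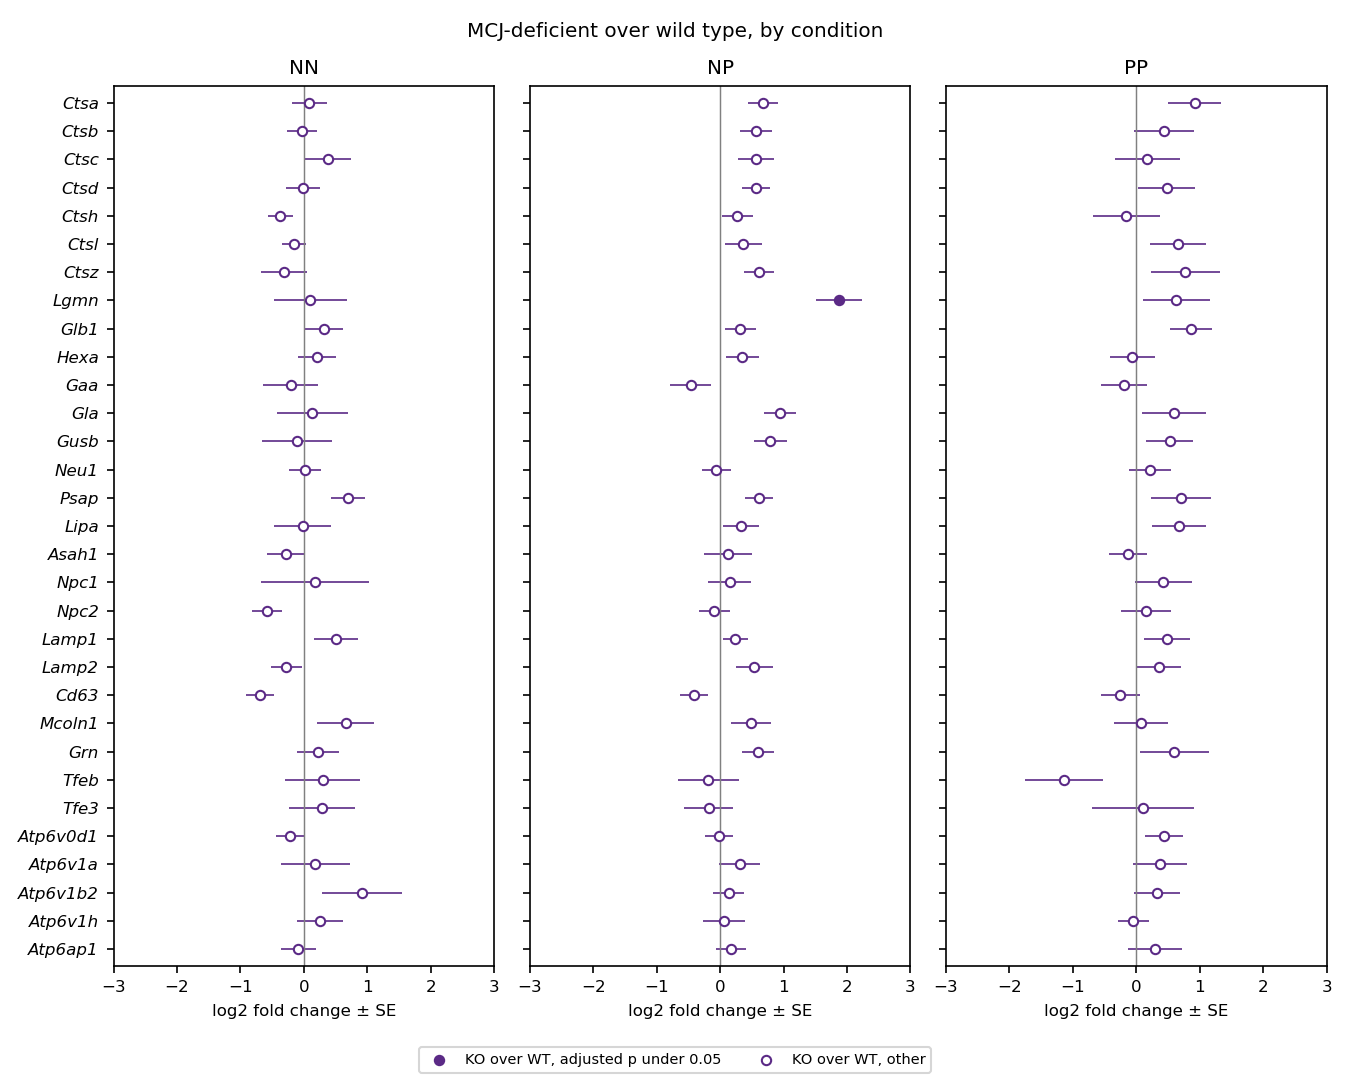
Log2 fold change of KO over WT with its standard error for 31 members (all but Atp6v0d2) in NN, NP and PP, with a filled point at an adjusted p under 0.05. In NP most points lie right of 0 and Lgmn alone is filled at 1.87, while in NN the points lie on both sides of 0.

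PP libraries differed widely within a genotype. WT PP 11 had the lowest level of the 6 PP libraries in 21 of 32 members, and KO PP 23 the highest in 18. The 17 hydrolases summed to 3884, 6114 and 3282 CPM in KO PP and 4488, 1485 and 3719 CPM in WT PP, against 1446 and 1566 CPM in KO NN and 1259 to 1576 CPM in WT NN, so WT PP 11 stood with the NN libraries. Its macrophage sum was 624 CPM, against 4909 and 4692 CPM in WT PP 10 and 12. Monocyte markers summed to 57.5 CPM in WT PP 11 against 1206 and 724 CPM in WT PP 10 and 12, and neutrophil markers to 288 against 1410 and 1088 CPM. Colonocyte markers summed to 10800 CPM against 7389 and 7163 CPM. The part of these marker differences in the members' values was not tested. In Lgmn WT PP 11 stood at 66.4 CPM, against 305 and 234 CPM in WT PP 10 and 12. Cd63 and Glb1 were not lowest in WT PP 11 among the WT PP libraries.

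**Figure D5:**
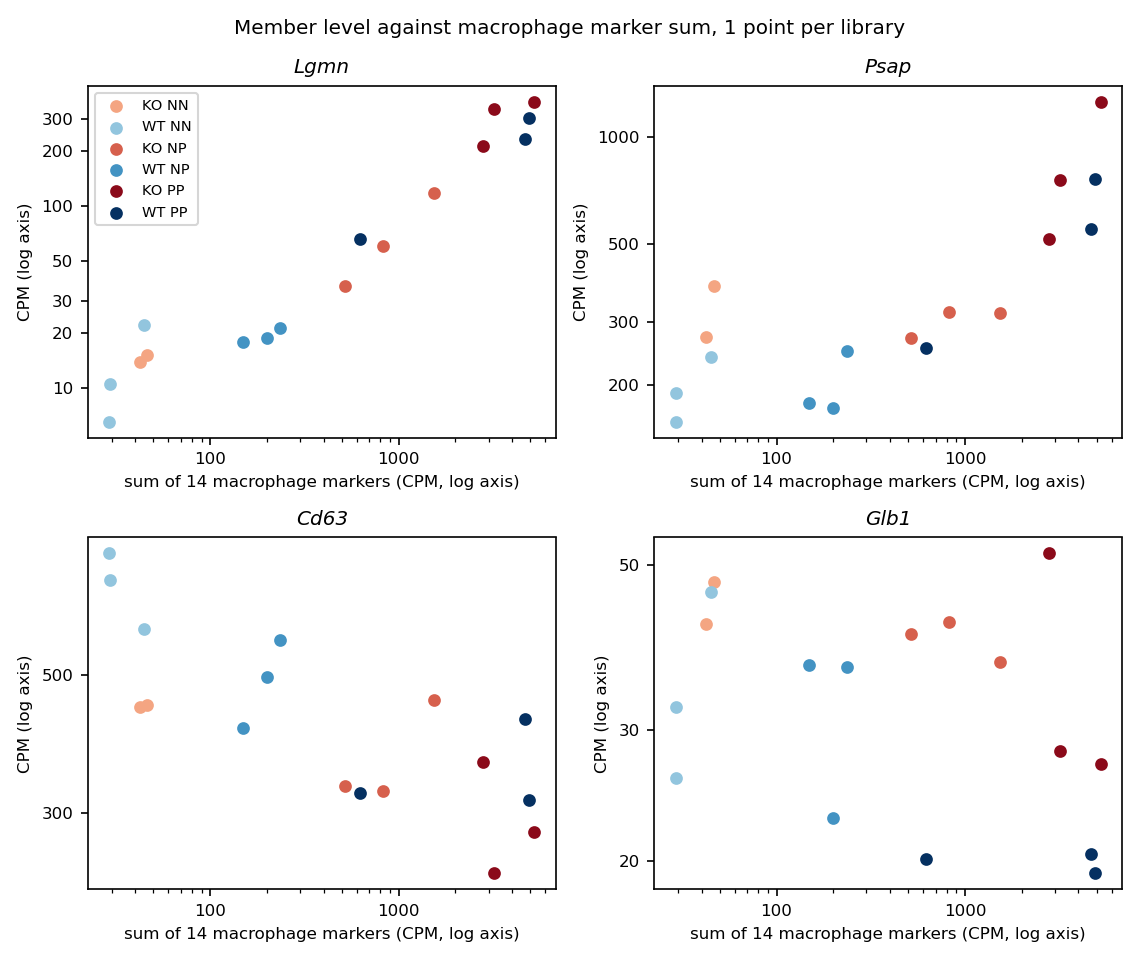
CPM of Lgmn, Psap, Cd63 and Glb1 in each of the 17 libraries (points, coloured by group) against the sum of 14 macrophage markers in that library, both on log axes. Lgmn is 6.57 to 22.1 CPM in the 8 libraries with a sum of 235 CPM or less and 214 to 373 CPM in the 5 with a sum of 2799 CPM or more, while Cd63 is highest in WT NN.

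In the TFEB family, Tfeb and Tfe3 were not called by edgeR in PP over NN in either genotype, and no test compared the family's genes. Tfeb stood at 2.71, 2.91 and 0.83 CPM in KO PP against 9.02 and 7.35 CPM in KO NN (log2 fold change −1.93, SE 0.62, adjusted p = 0.0577, edgeR), and at 4.34, 5.24 and 4.81 CPM in WT PP against 5.32, 6.61 and 7.38 CPM in WT NN (−0.42). Tfe3 stood at 26.5, 16.1 and 1.37 CPM in KO PP and 15.5, 10.2 and 16.1 CPM in WT PP, against 8.97 and 10.6 CPM in KO NN and 6.73 to 8.90 CPM in WT NN, and did not pass. KO PP 24 was the lowest of the 17 libraries in both genes. Of the relatives outside the 32, Tfec, known in mouse for expression in macrophages, had 0 counts in all NN libraries. It was at least 599-fold higher in KO PP and at least 390-fold higher in WT PP, and was called in both (adjusted p = 0.000112 and 2.49e-05, edgeR). With 1 library left out, these limits were 296-fold to 702-fold in KO and 247-fold to 573-fold in WT, the low ones being 303-fold and 296-fold without KO NN 13 and 14, and 256-fold and 247-fold without WT NN 1 and 3. Mitf stood at 13.3, 14.8 and 5.47 CPM in KO PP against 0.13 and 0.23 CPM in KO NN (adjusted p = 0.0546, edgeR), and at 14.4, 0.90 and 12.97 CPM in WT PP against 0, 0 and 0.80 CPM in WT NN (adjusted p = 0.0253, edgeR). The groups did not overlap in either genotype.

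A wider set of 112 other lysosomal genes moved both ways in PP over NN. In KO 20 rose and 4 fell, and in WT 26 rose and 13 fell, of 110 tested, against 6.52% and 3.77% of all genes in KO and 12.8% and 7.31% in WT. Among 22 other membrane proteins 6 rose and 1 fell in KO, and 10 rose and 3 fell in WT. They included the peptide carrier Slc15a3 and the metal carrier Slc11a1, known from macrophages. Cd68, a macrophage lysosomal glycoprotein, stood at 134, 288 and 154 CPM in KO PP against 1.76 and 0.41 CPM in KO NN, and at 223, 25.6 and 209.9 CPM in WT PP against 1.76, 0.10 and 1.80 CPM in WT NN. Among 35 other hydrolases 8 rose and 2 fell in KO, and 6 rose and 5 fell in WT. Ctss, which trims the MHC class II invariant chain, rose by 1.94 (SE 0.52) in KO and 1.60 (SE 0.44) in WT.

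Falls in that wider set were found among hydrolases as well. The aspartic protease Ctse fell by 3.12 (SE 0.61) in KO and 2.93 (SE 0.57) in WT on the log2 scale. In PP over NP the wider set gave 2 higher and 2 lower in KO and 14 higher and 1 lower in WT, against 1.34% and 0.389% of all genes in KO and 3.49% and 0.926% in WT. In NP over NN it gave 6 higher and 0 lower in KO and 4 higher and 1 lower in WT, against 2.04% and 0.0354% in KO and 2.25% and 0.195% in WT. Between KO and WT in NP it gave 3 higher, against 0.983% of all genes, the membrane proteins Cd68 (2.87, SE 0.47), Slc11a1 (2.81, SE 0.31) and Slc15a3 (2.00, SE 0.42), and none in NN or PP.

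Exons of 9 members overlap those of another gene (Ctsa, Ctsb, Ctsd, Ctsl, Ctsz, Glb1, Npc1, Lamp1 and Atp6v1h). The strand setting of the counting was not given in the sources used here, so the division of reads between those genes and their neighbours is uncertain.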

How the data were processed

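Colon was digested with collagenase and RNA taken up in Trizol, and sequencing libraries came from a NuGEN kit (Universal Plus mRNA-Seq), per the labels' protocols, which name no sorting step. The authors deposited raw counts, in 3 tables by condition, with KO and WT columns under NCBI gene numbers. Reads were processed with CASAVA 1.8.2, FastQC, Trim Galore, STAR 2.5.4 and DESeq2 on mm10, per the submitters' processing notes; the counting program was not given in the sources used here. Symbols came from RefSeq and GENCODE (1886 gene numbers stayed unnamed).

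Counts were filtered (filterByExpr, minimum count 10), scaled by TMM and tested with edgeR 4.0.16 quasi-likelihood fits in R 4.3.3, with Benjamini-Hochberg adjustment over all genes tested and calls at an adjusted p under 0.05. KO over WT was fitted within each table, and other contrasts in 1 fit of 17 libraries. Scripts were tested on simulated data. Alternatives were DESeq2 1.42.0, RLE factors, no filter, removal of mitochondrial genes, other sample sets and leaving out each library. Floors are 3 counts over a group and cover counting error only. P-values set group differences against the spread between these mice. The fits estimate that spread with sharing across genes and, in the fit of 17 libraries, over all groups. Every member could be named; other lysosomal genes were named if they passed and were among the 3 smallest p of their list in a comparison, with Mitf and Ctss named after their values were seen. A result on 1 withheld item is not reported here. The members and lists were chosen with earlier results of these data known.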

Additional observations from a re-analysis of the deposited data

How the results depend on the processing

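No value of a member turned in direction after a call under any alternative. Of 4584 member values, 4391 kept their side of the threshold, 73 passed it newly, 112 lost it and 8 uncalled values moved. Most of the 4584 belong to results not called in the main fit, which could not lose a call, so the 112 losses fell on few results. In PP over NP, each called member but Lgmn in WT lost its call in 5 of the 6 fits with 1 library left out. The other named lysosomal genes are not among these values. Counts of called members changed as follows. With DESeq2 there was 1 member between KO and WT in NN, 1 for DSS in WT, 3 for DSS in KO, 11 for PP over NP in KO and 19 for PP over NN in KO (17 higher, 2 lower). Without the filter on low counts there was 1 for DSS in WT, 1 for DSS in KO and 6 for PP over NP in KO. Fits of the 2 groups alone gave 3 for DSS in KO, 2 and 8 for PP over NP in WT and KO, and 4 for PP over NN in WT. The fit of all 17 libraries gave 0 between KO and WT in NP. Leaving out each library gave 0 to 1 member between KO and WT in NP, 0 to 1 for DSS in KO, 0 to 5 for PP over NP in KO, 1 to 14 for PP over NP in WT, 3 to 15 for PP over NN in KO and 8 to 17 for PP over NN in WT; other comparisons stayed at 0. Over all genes, DESeq2 called 283 between KO and WT in NN, 366 in NP and 88 in PP (0, 145 and 0 with edgeR), 822 and 1206 for DSS in KO and WT (352 and 414), 1004 and 1456 for PP over NP (294 and 748) and 2853 for PP over NN in KO (1746); no filter gave 9 in NN, 1 in PP, 353 in NP and 558 for PP over NP in KO, the 17-library fit 3 in NN, 1 in NP and 8 in PP, and 2-group fits 1029 and 42 for DSS in KO and WT, 802 for PP over NP in KO and 1612 for PP over NN in WT (3409). RLE factors and removal of mitochondrial genes kept each count within 1.5 times. RLE moved the median of all genes in KO PP over NN to 0.16, against 0.06 with TMM, and DESeq2 that in WT PP over NN to 0.12, against 0.27. Mouse numbers 1 and 2 recur in KO NN, WT NN and KO NP, number 3 in WT NN and KO NP, and number 10 in KO PP and WT PP. A number shared between KO and WT names different animals, since the titles give different genotypes. Between KO NN and KO NP the shared numbers appear to name different animals, though the titles do not say so. Deviations of same-numbered libraries correlated at −0.12 between KO NN and WT NN and −0.01 between KO NN and KO NP. A replicate block by mouse number gave 0 members between KO and WT in NN, with 0 genes called, and 4 members for DSS in KO. Over all genes that DSS fit called 1756, against 1029 in the 2-group fit without the block and 352 in the main fit. Low counts limit Atp6v0d2 most, followed by Tfeb, Npc1 and Tfe3, whose lowest library counts were 26, 39 and 43. The 2 KO NN libraries limit each contrast with that group.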

Other observations

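Other subunits of the proton pump and its partners on the lysosomal surface were examined in PP over NN. Of 17 other pump genes, 15 were tested, and in each genotype 2 rose and 1 fell, against 6.52% of all genes called higher and 3.77% lower in KO, and 12.8% and 7.31% in WT. Tcirg1, the V0 subunit that pumps in osteoclasts and phagocytes, rose by 2.24 (SE 0.67) in KO and 1.63 (SE 0.56) in WT on the log2 scale. Atp6v0e2, a small V0 subunit, fell by 3.08 (SE 0.36) in KO and 2.43 (SE 0.34) in WT, and in PP over NP by 2.11 (SE 0.33) in KO and 2.06 (SE 0.33) in WT. Of 16 regulators, 1 rose and 0 fell in KO, and 4 rose and 4 fell in WT. The 4 that fell in WT were Lamtor1, Lamtor2, Lamtor4 and Lamtor5 of the Ragulator complex, which ties growth signalling to the lysosome; they were singled out after their values were seen. Lamtor2 stood at 37.2, 49.1 and 46.6 CPM in WT PP against 85.7, 166 and 90.3 CPM in WT NN. In KO PP it stood at 22.8, 33.3 and 54.5 CPM against 67.1 and 61.5 CPM in KO NN and did not pass.

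Among 15 sorting genes, which carry enzymes to the lysosome, 2 rose in KO and 3 in WT in PP over NN, and 0 fell. The shares of all genes were 6.52% called higher and 3.77% lower in KO, and 12.8% and 7.31% in WT. Rab7, the GTPase of late endosomes, rose by 1.30 (SE 0.36) in KO and 1.47 (SE 0.32) in WT, and M6pr, the receptor that delivers enzymes tagged with mannose 6-phosphate, by 1.16 (SE 0.35) and 1.27 (SE 0.31). Among 7 cystatins, which hold cathepsins in check, 1 rose in each genotype. In WT it was Cst7, with 444, 40 and 184 counts in WT PP and 0 in WT NN, at least 162-fold higher (78.6-fold without WT PP 10, and 106-fold and 102-fold without WT NN 1 and 3). In KO it was Stfa2, with 66, 492 and 52 counts in KO PP and 0 in KO NN, at least 142-fold higher (41.6-fold without KO PP 23, and 71.7-fold and 70.1-fold without KO NN 13 and 14), in a family of near-identical copies whose reads may be divided wrongly; neutrophil markers, which stood at 1174 to 5359 CPM in KO PP and 25.3 to 30.7 CPM in KO NN, moved beside it, and their part was not tested.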
